A study of Mus musculus with 27 samples.

Results

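The genes described here are 36 genes of fatty acid oxidation, chosen by name for their textbook roles with earlier results of these data known. They were matched by symbol to the Ensembl identifiers of a count table that lists 38124 genes. All 36 were found: 18 act in mitochondria, 10 in or at peroxisomes, 2 (Eci2 and Crat) in both, 4 are long-chain acyl-CoA synthetases that supply both pathways, and 2 are nuclear receptors that regulate them. A filter on low counts kept 13599 genes and 35 of the 36 members. The member it removed was Ppara.

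The counts came from RNA of mouse alveolar macrophages sorted during and after an acute lung injury. Recruited macrophages were taken 3, 6, 9 and 12 days after 20 ng of lipopolysaccharide (LPS) in 50 µL was given into the airway. Resident macrophages were taken on the same days after the same dose and from untreated mice (day 0). All mice were labelled C57B/6 and were 8 to 14 weeks old, cells were collected by lavage and sorted as CD11c-CD11b+ (recruited) or CD11c+CD11b- (resident), and each of the 9 groups has 3 libraries, 27 in all. Nothing in the labels ties the 3 libraries of a group to separate animals or to pools, so p-values measure only the spread between these libraries, which may be technical. There is no untreated recruited group, so population and treatment cannot be told apart where recruited cells are set against untreated resident cells.

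Fatty acids are first joined to coenzyme A by acyl-CoA synthetases. Long chains then enter mitochondria through the carnitine shuttle and are shortened by a repeating spiral of dehydrogenase, hydratase, hydroxyacyl dehydrogenase and thiolase steps, whose electrons pass through electron transfer flavoprotein to the respiratory chain. Peroxisomes run a parallel spiral that begins with an oxidase, takes up very long-chain and branched fatty acids through ABCD transporters, and hands shortened products to mitochondria as carnitine esters. Resident alveolar macrophages take up and break down surfactant lipid.

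Start-site sequences are shown for the members with the lowest ratios and for a pair that moved together. RefSeq promoter windows (GRCm38.p6, the build of the files, 250 bases before to 50 after each start) were matched for 31 members. Hadha and Hadhb, which encode the subunits of the mitochondrial trifunctional protein, have RefSeq starts 273 bases apart on opposite strands of chromosome 5, and the stretch between them is given once. The GENCODE annotation that gives the gene coordinates here places the starts of the 2 genes 86 bases apart, so its start of Hadha lies inside that stretch. Ehhadh and Acaa1b had the lowest ratio of recruited over resident, Acaa1a is the paralog of Acaa1b, and Echs1 was the mitochondrial member higher in recruited cells. Capitals mark GC boxes (GGGCGG) and nuclear receptor half-sites (AGGTCA), searched on both strands.
Hadha and Hadhb, chr5:30154980-30155253, plus strand: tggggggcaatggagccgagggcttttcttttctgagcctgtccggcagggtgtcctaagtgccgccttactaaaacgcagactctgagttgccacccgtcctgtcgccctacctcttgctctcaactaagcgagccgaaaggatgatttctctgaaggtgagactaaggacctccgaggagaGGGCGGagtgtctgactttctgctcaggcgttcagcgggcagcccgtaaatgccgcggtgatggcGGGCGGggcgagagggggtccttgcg
Ehhadh, chr16:21787785-21788084, minus strand: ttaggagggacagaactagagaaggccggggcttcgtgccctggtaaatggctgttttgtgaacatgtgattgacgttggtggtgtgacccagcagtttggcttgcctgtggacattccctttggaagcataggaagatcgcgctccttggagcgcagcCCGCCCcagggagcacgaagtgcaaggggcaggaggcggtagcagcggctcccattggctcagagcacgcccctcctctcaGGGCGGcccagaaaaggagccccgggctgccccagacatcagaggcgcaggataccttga
Acaa1b, chr9:119157044-119157343, minus strand: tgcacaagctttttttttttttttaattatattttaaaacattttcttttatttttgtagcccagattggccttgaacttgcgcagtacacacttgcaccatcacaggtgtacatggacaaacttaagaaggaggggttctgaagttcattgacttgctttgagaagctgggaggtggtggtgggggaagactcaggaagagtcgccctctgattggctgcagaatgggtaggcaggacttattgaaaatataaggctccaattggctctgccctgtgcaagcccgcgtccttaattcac
Acaa1a, chr9:119341044-119341343, plus strand: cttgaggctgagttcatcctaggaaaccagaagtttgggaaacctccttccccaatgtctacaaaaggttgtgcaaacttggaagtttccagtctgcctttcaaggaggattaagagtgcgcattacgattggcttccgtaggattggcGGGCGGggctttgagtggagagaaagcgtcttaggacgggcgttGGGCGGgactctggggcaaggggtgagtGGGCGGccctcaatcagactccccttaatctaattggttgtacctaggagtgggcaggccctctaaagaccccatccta
Echs1, chr7:140116372-140116671, minus strand: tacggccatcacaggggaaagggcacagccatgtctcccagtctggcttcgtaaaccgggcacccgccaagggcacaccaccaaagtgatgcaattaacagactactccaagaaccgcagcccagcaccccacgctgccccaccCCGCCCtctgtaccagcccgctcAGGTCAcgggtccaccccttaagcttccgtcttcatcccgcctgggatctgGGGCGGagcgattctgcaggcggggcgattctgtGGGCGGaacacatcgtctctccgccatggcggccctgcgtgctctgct

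A GC box stood in the windows of 24 of 31 members, against 38.2% of the 27025 genes with a window. The half-site stood in those of 4 of 31 members (Acadm, Acadvl, Cpt1a and Echs1), against 18.1% of genes. No member window held half-sites 1 base apart (AGGTCANAGGTCA, found in 0.0481% of genes), also with a free base in each (AGGNCANAGGNCA, 0.451% of genes). The Acaa1b window held no GC box and had a GC content of 43.7%, whereas the Acaa1a window held 3 GC boxes at 53.3% GC. The median GC content was 62.3% over the members and 52.7% over all promoters.

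Library totals ran from 11093216 to 18299674 counts (median 14859352). Reads outside annotated genes came to 6.77% to 13.02% in 26 libraries and to 26.5% in recruited day 6 replicate 2. All 11 resident alveolar macrophage markers were lower and all 8 monocyte markers higher in recruited cells in the average. Of these, Itgax and Itgam encode CD11c and CD11b, the proteins the cells were sorted on, so their calls are not independent of the sort. The resident markers summed to 2237 to 10329 CPM (counts scaled to a common library size) in recruited and 15917 to 33471 CPM in resident libraries. Chil3 alone made up 75.6% of this sum in recruited and 74.1% in resident libraries. The monocyte markers, mostly Fn1, summed to 9543 to 24366 CPM in recruited and 1211 to 11622 CPM in resident libraries, which overlap. Neutrophil markers summed to 159 to 883 CPM in recruited and 82.4 to 225 CPM in resident libraries, mostly Csf3r, with Mpo and Elane at 0 in resident cells. T and NK cell markers summed to 55.3 to 193 CPM in recruited and 86.3 to 304 CPM in resident libraries, where Cd2 made up 97.2% of the sum, while 8 of the 10 markers tested were higher in recruited cells and 1, Cd2, was lower. B cell markers summed to at most 4.19 CPM, dendritic cell markers to at most 21.4 CPM, and epithelial markers to 12.9 to 56.1 CPM in recruited and 71.9 to 206 CPM in resident libraries. The epithelial sum was mostly Cdh1 in recruited libraries (66.7%) and mostly Cdh1 and Epcam in resident ones. Cdh1 and Epcam were lower in recruited cells and 1 of the 8 epithelial markers tested was higher (median log2 0.64). Sftpc averaged 5.29 and 4.64 CPM in recruited cells on days 9 and 12, against 1.02 and 0.751 CPM in resident cells. In bulk samples, fewer cells of a type and less RNA per cell cannot be told apart.

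Per kilobase of exon, Etfb and Cpt1a had the highest level over the 9 group means, with medians of 88.4 and 75.0 CPM per kilobase, and Hadhb (3.25), Acsl3 (1.404) and Acad10 (1.37) the lowest of the members tested. In untreated resident cells Hsd17b4 led with 97.9 CPM per kilobase, ahead of Etfb at 88.4, Cpt1a at 78.7 and Acaa1b at 63.7. In recruited cells on day 3 Acsl1 led with 87.4 CPM per kilobase, ahead of Acsl5 at 61.6, while Hsd17b4 stood at 23.7 and Acaa1b at 0.801. Ppara, the receptor best known for driving these genes in mouse liver, had 1 count in all 27 libraries, in resident day 3 replicate 2. A count of 0 allows up to 0.164 to 0.270 CPM (3 counts of the library total, covering counting error only).

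Recruited macrophages held less RNA of most members than resident macrophages. Averaged over days 3, 6, 9 and 12, 26 of the 35 members tested were lower in recruited cells and 3 were higher, at an adjusted p under 0.05 (edgeR quasi-likelihood test, Benjamini-Hochberg adjustment over all genes tested). Over all genes tested, 30.0% were lower and 30.3% higher in the same comparison. The median log2 ratio of recruited over resident was -0.49 for the members and 0.02 for all genes tested. In 11 members every one of the 12 recruited libraries lay below every one of the 15 resident libraries: Cpt2, Acads, Hadha, Hadhb, Etfa and Etfb in mitochondria, Acaa1b, Ehhadh, Hsd17b4 and Pex11a in peroxisomes, and Eci2 in both. Such full separation held for 5.36% of all genes tested, and the opposite one, in no member, for 4.36%. Among mitochondrial members 16 of 18 were lower and 1 was higher (median -0.44). Among peroxisomal members 8 of 10 were lower and none was higher (median -0.97).

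**Figure D1:**
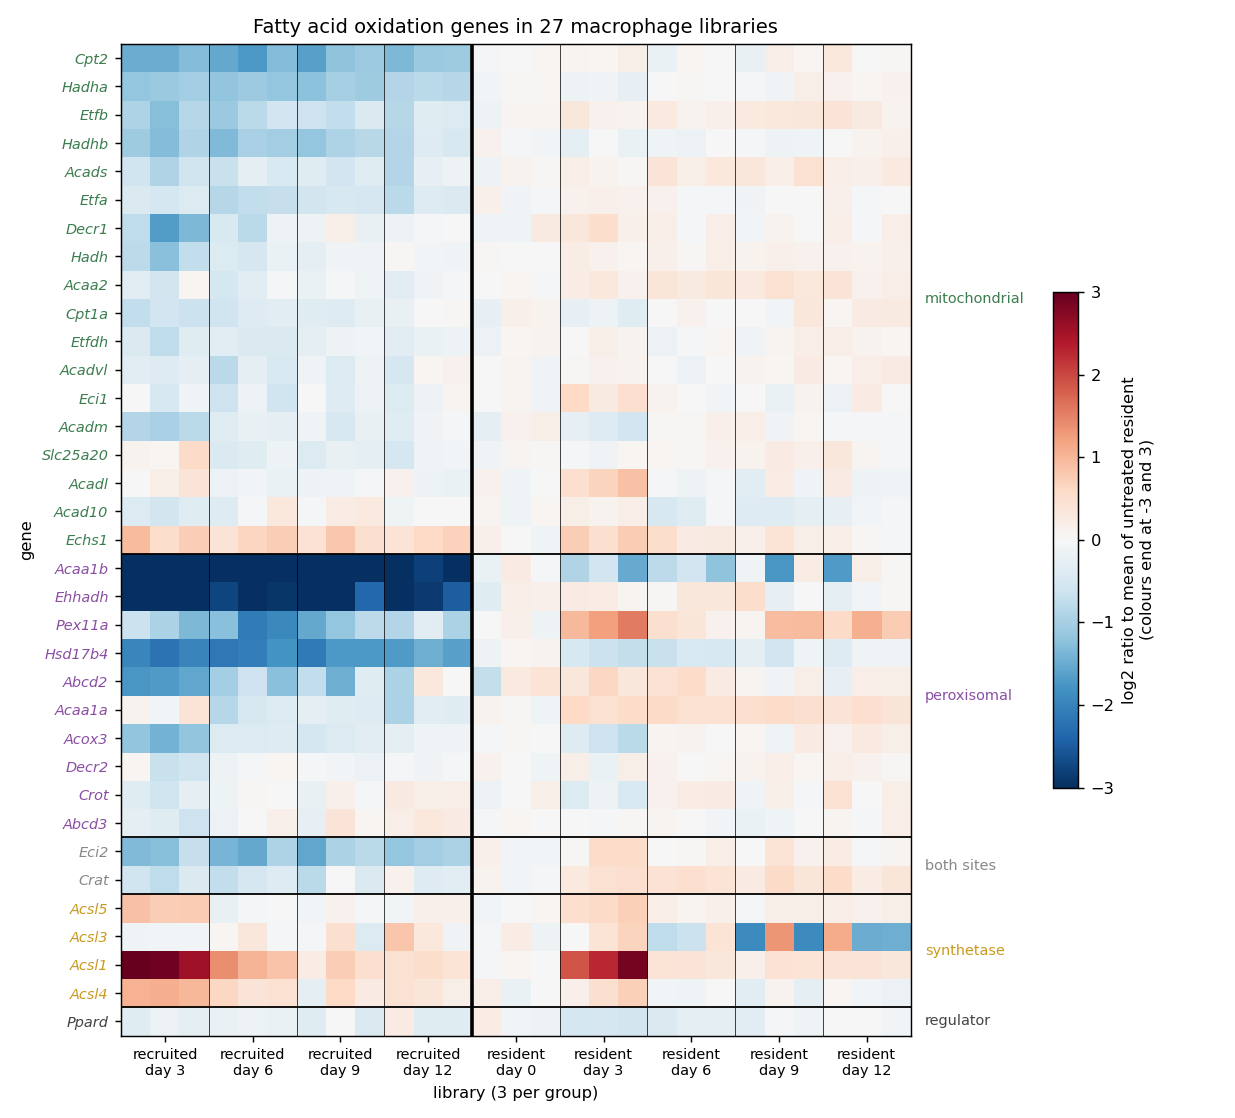
The log2 ratio of each library's CPM to the mean of the 3 untreated resident libraries is shown for the 35 members tested, in rows by class and average ratio, with 12 recruited libraries left and 15 resident libraries right. Blue is lower and red higher: Acaa1b and Ehhadh are dark blue across the recruited libraries, Cpt2 and Hadha are blue in all of them, and Acsl1 is darkest red on day 3 in both populations.

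The carnitine shuttle had its lowest ratio at its last step. Cpt2, which on the inner mitochondrial membrane turns acylcarnitine back to acyl-CoA (chr4:107903981-107923610, GRCm38), had 19.05, 19.2 and 21.8 CPM on day 3, 18.6, 16.3 and 21.9 CPM on day 6, 17.5, 23.5 and 25.2 CPM on day 9 and 21.2, 24.7 and 25.8 CPM on day 12 in recruited libraries. Resident libraries held 52.2, 54.0 and 55.8 CPM on day 0, 57.5, 56.6 and 61.1 CPM on day 3, 47.0, 56.6 and 54.9 CPM on day 6, 46.0, 61.8 and 55.9 CPM on day 9 and 67.0, 53.6 and 55.5 CPM on day 12. The populations did not overlap on any day. The average log2 ratio was -1.41 (SE 0.07, adjusted p = 5.92e-14). Cpt1a, the outer-membrane enzyme that controls entry (given, like other members outside the rule for named genes, after its values were seen), stood at -0.39 (SE 0.06, adjusted p = 7.32e-06), with 358 to 614 CPM (median 459) in recruited and 461 to 760 CPM (median 602) in resident libraries. The translocase Slc25a20 was lower at -0.23 (SE 0.07, adjusted p = 0.00432).

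Both subunits of the trifunctional protein, which carries out the last steps of the spiral on long chains, were lower. Hadha (chr5:30118304-30155162, GRCm38) had 137, 143 and 153 CPM on day 3, 135, 145 and 139 CPM on day 6, 130, 153 and 148 CPM on day 9 and 167, 175 and 170 CPM on day 12 in recruited libraries. In resident libraries it had 289, 314 and 321 CPM on day 0, 278, 285 and 259 CPM on day 3, 307, 316 and 312 CPM on day 6, 302, 284 and 346 CPM on day 9 and 339, 323 and 334 CPM on day 12. The highest recruited library lay under the lowest resident one. The average log2 ratio was -1.04 (SE 0.04, adjusted p = 3.83e-15) for Hadha and -0.86 (SE 0.07, adjusted p = 1.06e-10) for Hadhb, its thiolase subunit, which had 9.45 to 18.2 CPM (median 12.3) in recruited and 19.8 to 26.7 CPM (median 22.9) in resident libraries. Per kilobase of exon, Hadha stood at 9.06 times Hadhb in the median recruited library and 9.97 times in the median resident library, with overlapping ranges of 7.28 to 11.2 and 8.39 to 11.9.

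Among the acyl-CoA dehydrogenases, which open each turn of the spiral, the short-chain enzyme Acads was lowest at -0.73 (SE 0.07, adjusted p = 4.31e-09). Very long-chain Acadvl stood at -0.37 (SE 0.07, adjusted p = 5.26e-05) and medium-chain Acadm at -0.33 (SE 0.06, adjusted p = 6.25e-05). Exons of Acadvl share 1151 bases with Dvl2 on the other strand, and the sources used here give no strand setting for the counting. Other members with such overlaps include Echs1 (142 bases with Paox), Acsl5 (404 with Zdhhc6), Crat (411 with Gm16323) and Acox3 (700 with 4931431C16Rik). Long-chain Acadl had 85.2, 97.2 and 111 CPM on day 3, 75.8, 80.9 and 74.7 CPM on day 6, 77.1, 78.5 and 82.6 CPM on day 9 and 93.7, 76.4 and 74.8 CPM on day 12 in recruited libraries. Resident libraries had 93.2, 78.5 and 84.9 CPM on day 0, 122, 136 and 157 CPM on day 3, 82.9, 76.2 and 83.8 CPM on day 6, 67.5, 99.6 and 79.0 CPM on day 9 and 102, 76.5 and 77.7 CPM on day 12. The populations overlapped except on day 3. The average of -0.17 (SE 0.07, adjusted p = 0.0348) rests on single libraries: the adjusted p was 0.0516 to 0.100 without resident day 3 replicate 3, day 6 replicate 1 or 3, day 9 replicate 2 or day 12 replicate 1, or without recruited day 3 replicate 1, day 6 replicate 1 or 3, day 9 replicate 1 or 2, or day 12 replicate 2 or 3. It was 0.0656 with DESeq2 and 0.0621 with no filter on low counts.

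Electron transfer flavoprotein, which takes electrons from these dehydrogenases, was lower in both subunits. Etfb had 54.3, 42.2 and 56.6 CPM on day 3, 47.3, 58.3 and 69.0 CPM on day 6, 66.1, 61.9 and 75.9 CPM on day 9 and 56.9, 79.5 and 77.4 CPM on day 12 in recruited libraries. Resident libraries had 91.9, 109 and 108 CPM on day 0, 131, 113 and 111 CPM on day 3, 125, 110 and 113 CPM on day 6, 126, 127 and 130 CPM on day 9 and 134, 124 and 110 CPM on day 12. No recruited library reached a resident one. The average log2 ratio was -0.97 (SE 0.07, adjusted p = 3.5e-11) for Etfb, -0.60 (SE 0.05, adjusted p = 3.29e-10) for Etfa and -0.38 (SE 0.05, adjusted p = 1.53e-06) for Etfdh, the oxidoreductase that passes the electrons to ubiquinone.

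Echs1, the short-chain enoyl-CoA hydratase (chr7:140105710-140116476, GRCm38), was the mitochondrial member that was higher in recruited cells. Recruited libraries had 104, 77.0 and 89.9 CPM on day 3, 70.3, 83.2 and 89.2 CPM on day 6, 72.2, 94.5 and 75.1 CPM on day 9 and 70.9, 81.0 and 86.5 CPM on day 12. In resident libraries it stood at 59.4, 52.7 and 49.1 CPM on day 0, 89.9, 74.7 and 90.6 CPM on day 3, 77.2, 63.2 and 65.1 CPM on day 6, 59.3, 71.4 and 60.3 CPM on day 9 and 61.7, 55.0 and 51.8 CPM on day 12. The recruited libraries lay above the resident ones on days 9 and 12 and overlapped them on days 3 and 6. The average log2 ratio was 0.29 (SE 0.07, adjusted p = 0.000625). Acad10, an acyl-CoA dehydrogenase family member, did not pass the test in the average (0.07, SE 0.08, adjusted p = 0.436). The other mitochondrial spiral enzymes were lower: the hydroxyacyl dehydrogenase Hadh (-0.51), the thiolase Acaa2 (-0.49), the dienoyl reductase Decr1 (-0.59) and the isomerase Eci1 (-0.36), with adjusted p from 1.84e-08 for Hadh to 0.000408 for Eci1.

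In peroxisomes both bifunctional enzymes, which follow the oxidase, were lower. Ehhadh, the L-bifunctional enzyme (chr16:21761287-21787807, GRCm38), had 2.16, 0.943 and 0.510 CPM on day 3, 3.297, 1.95 and 2.91 CPM on day 6, 1.69, 2.63 and 4.42 CPM on day 9 and 2.78, 3.002 and 4.03 CPM on day 12 in recruited libraries. Resident libraries had 17.99, 26.6 and 25.4 CPM on day 0, 27.4, 26.9 and 24.2 CPM on day 3, 23.5, 29.1 and 29.0 CPM on day 6, 33.0, 19.4 and 22.7 CPM on day 9 and 19.2, 21.8 and 23.7 CPM on day 12. All recruited values lay far under the resident range, and the average log2 ratio was -3.39 (SE 0.16, adjusted p = 6.58e-14). Hsd17b4, the D-bifunctional enzyme used for very long-chain and branched substrates, had 71.6 to 120 CPM (median 90.9) in recruited and 203 to 358 CPM (median 254) in resident libraries, with no overlap and an average ratio of -1.46 (SE 0.07, adjusted p = 2.82e-14).

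The paralogous peroxisomal thiolases, which close the spiral, had unequal ratios. Acaa1b (chr9:119148023-119157093, GRCm38) had 3.38, 0.393 and 0.947 CPM on day 3, 3.88, 1.58 and 2.29 CPM on day 6, 3.69, 1.28 and 7.86 CPM on day 9 and 1.26, 17.6 and 12.3 CPM on day 12 in recruited libraries. In resident libraries it had 108, 146 and 121 CPM on day 0, 65.8, 83.0 and 43.2 CPM on day 3, 71.5, 83.9 and 53.3 CPM on day 6, 115, 36.8 and 145 CPM on day 9 and 38.3, 141 and 128 CPM on day 12. The populations did not overlap. The average log2 ratio was -4.46 (SE 0.40, adjusted p = 5.93e-09) for Acaa1b and -0.82 (SE 0.07, adjusted p = 4.87e-10) for Acaa1a. Acaa1b made up 2.23% of the summed CPM of the pair in the median recruited library and 31.0% in the median resident library, with a highest recruited value of 14.2% and a lowest resident value of 15.7%. Reads that aligned to more than 1 place were not counted and came to 22.9% to 40.8% of the assigned counts, so levels of these similar genes are uncertain. Exons of Acaa1a also share 290 bases with Myd88 on the other strand.

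Acaa1b, like some other members, varied between replicates with the numbers that the deposited table's header gives the libraries. Numbers 12, 13, 17 and 18 are resident day 9 replicate 2, resident day 12 replicate 1, recruited day 9 replicate 2 and recruited day 12 replicate 1, and each had the lowest Acaa1b value of its group. The same 4 libraries had the highest Acsl3 values of their groups, 8.55 and 10.96 CPM in recruited and 15.3 and 13.2 CPM in resident libraries, where the other resident libraries of days 9 and 12 had 1.51 to 2.13 CPM. With the run of header numbers as a covariate, the average log2 ratio of recruited over resident was -4.51 (SE 0.21) for Acaa1b, against -4.46 (SE 0.40) without it, and 0.38 (SE 0.22, adjusted p = 0.136) for Acsl3, against 0.10 (SE 0.35, adjusted p = 0.824). In these 4 libraries Cpt1a, Acadvl, Eci1 and Abcd2 also had the lowest values of their groups, and Acsl4, Crat, Crot and Ppard the highest. For these members the fit with that covariate is not given here. The sources used here do not say what the numbers stand for.

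**Figure D2:**
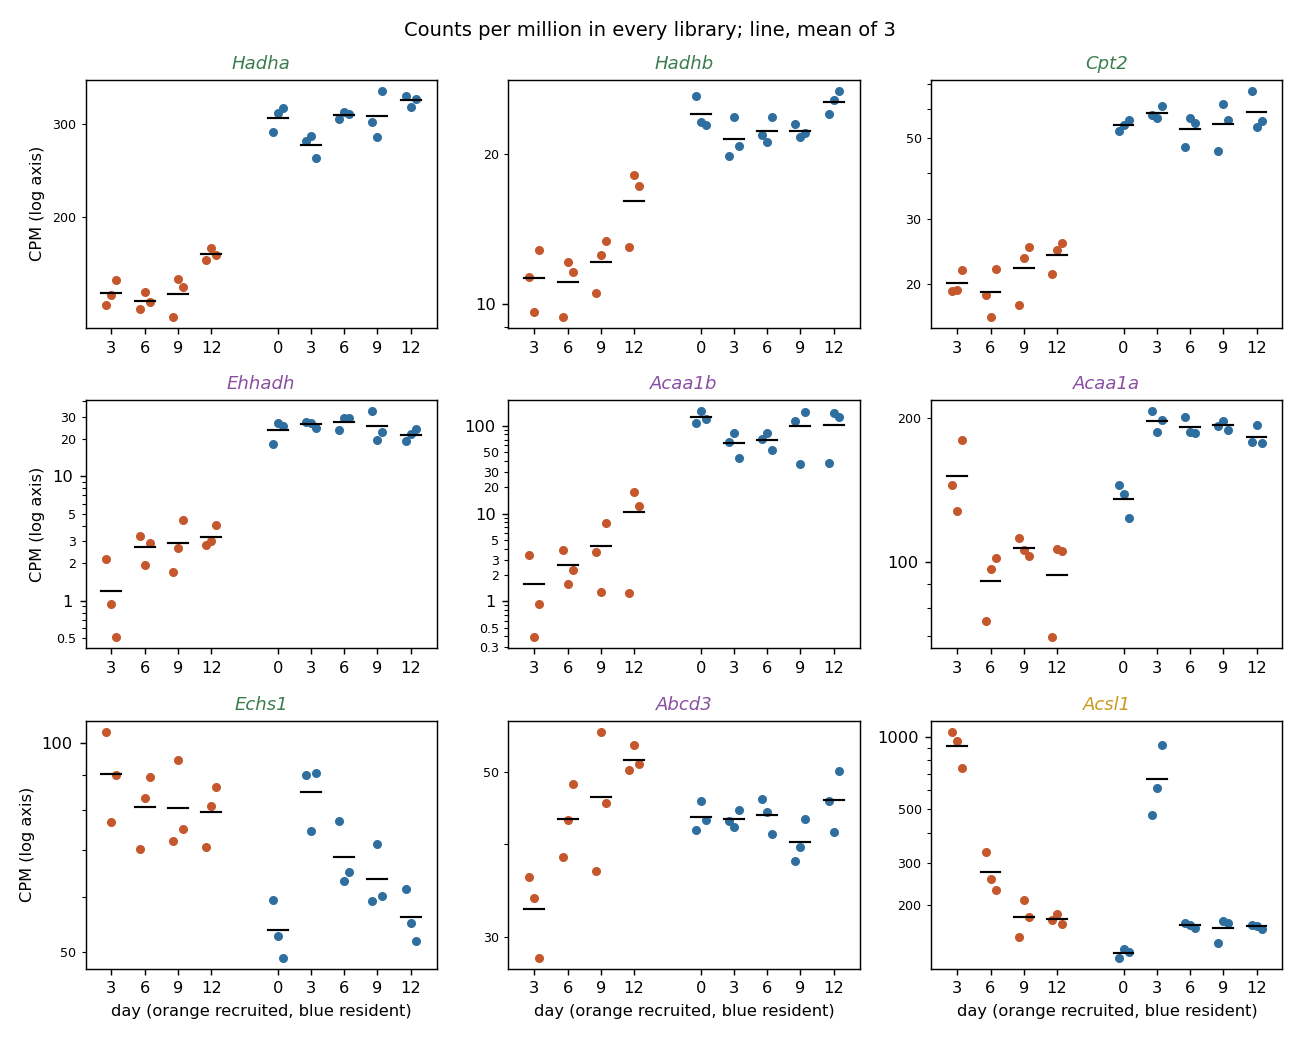
CPM on a log axis for 9 members by day, with recruited libraries in orange left of resident libraries in blue and a line at the mean of 3 libraries. Hadha, Hadhb, Cpt2, Ehhadh and Acaa1b are apart between populations, Echs1 and Abcd3 overlap, and Acsl1 peaks on day 3 in both populations.

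Pex11a, which promotes peroxisome division, had 13.7, 11.1 and 8.38 CPM on day 3, 8.94, 4.92 and 5.54 CPM on day 6, 7.32, 9.60 and 12.4 CPM on day 9 and 11.7, 17.2 and 11.2 CPM on day 12 in recruited libraries. It had 21.6, 23.9 and 19.4 CPM on day 0, 42.6, 50.7 and 63.8 CPM on day 3, 30.3, 27.7 and 23.5 CPM on day 6, 22.9, 40.9 and 42.0 CPM on day 9 and 32.0, 45.5 and 36.7 CPM on day 12 in resident libraries. The populations did not overlap, and the average log2 ratio was -1.92 (SE 0.13, adjusted p = 2.02e-11).

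The acyl-CoA transporter Abcd3 had 36.1, 33.9 and 28.2 CPM on day 3, 38.5, 43.1 and 48.1 CPM on day 6, 36.8, 56.6 and 45.4 CPM on day 9 and 50.3, 54.2 and 51.3 CPM on day 12 in recruited libraries. Its resident libraries had 41.8, 45.7 and 43.1 CPM on day 0, 42.9, 42.2 and 44.5 CPM on day 3, 46.0, 44.2 and 41.3 CPM on day 6, 38.0, 39.7 and 43.3 CPM on day 9 and 45.7, 41.5 and 50.1 CPM on day 12. Recruited libraries lay below resident ones on day 3 and above them on day 12, and the average of -0.01 (SE 0.06, adjusted p = 0.900) did not pass the test.

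Crot, which makes carnitine esters of shortened chains for export, had 28.6, 24.4 and 30.4 CPM on day 3, 33.7, 38.0 and 37.2 CPM on day 6, 31.7, 41.4 and 35.8 CPM on day 9 and 44.6, 42.3 and 42.8 CPM on day 12 in recruited libraries. Resident cells had 32.6, 37.3 and 42.2 CPM on day 0, 27.96, 33.2 and 26.9 CPM on day 3, 40.8, 43.7 and 44.1 CPM on day 6, 34.7, 42.1 and 36.1 CPM on day 9 and 51.3, 37.2 and 42.0 CPM on day 12. The populations overlapped except on day 6, and the average of -0.09 (SE 0.06, adjusted p = 0.206) did not pass the test.

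The dienoyl reductase Decr2 had 20.3, 12.3 and 12.96 CPM on day 3, 17.7, 18.7 and 20.6 CPM on day 6, 18.8, 18.5 and 17.4 CPM on day 9 and 19.2, 18.2 and 19.04 CPM on day 12 in recruited libraries. It stood at 21.4, 19.6 and 17.9 CPM on day 0, 21.99, 17.02 and 22.1 CPM on day 3, 21.4, 19.4 and 20.3 CPM on day 6, 20.9, 22.5 and 20.3 CPM on day 9 and 22.7, 21.4 and 20.2 CPM on day 12 in resident libraries. Recruited libraries lay below resident ones on days 9 and 12, and the average was -0.23 (SE 0.07, adjusted p = 0.00685). The branched-chain oxidase Acox3 was lower at -0.49 (SE 0.05, adjusted p = 3.89e-08) and the very long-chain transporter Abcd2 at -1.12 (SE 0.15, adjusted p = 8.82e-07).

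Both members found at both sites were lower. Eci2, an enoyl-CoA isomerase, had 37.0, 38.3 and 57.5 CPM on day 3, 35.3, 32.0 and 48.5 CPM on day 6, 31.1, 47.6 and 53.01 CPM on day 9 and 41.0, 45.0 and 48.2 CPM on day 12 in recruited libraries. Against these, resident libraries had 102, 88.0 and 87.5 CPM on day 0, 95.2, 135 and 136 CPM on day 3, 92.2, 95.1 and 106 CPM on day 6, 93.6, 122 and 100 CPM on day 9 and 108, 88.1 and 98.5 CPM on day 12. The populations did not overlap (-1.30, SE 0.10, adjusted p = 6.57e-11). Crat, the carnitine acetyltransferase, had 93.4, 83.3 and 103 CPM on day 3, 84.0, 98.4 and 107 CPM on day 6, 80.2, 142 and 104 CPM on day 9 and 154, 107 and 112 CPM on day 12 in recruited libraries. Its resident values were 152, 134 and 136 CPM on day 0, 173, 193 and 198 CPM on day 3, 189, 198 and 188 CPM on day 6, 167, 210 and 182 CPM on day 9 and 206, 165 and 180 CPM on day 12. The recruited libraries day 9 replicate 2 and day 12 replicate 1 lay within the whole resident range, and no day overlapped (-0.84, SE 0.08, adjusted p = 5.41e-09).

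Peroxisomal members had a lower median than mitochondrial members on each day. The median log2 ratio was -1.05 for 10 peroxisomal and -0.60 for 18 mitochondrial members on day 3, -1.21 and -0.49 on day 6, -0.85 and -0.40 on day 9, and -0.67 and -0.30 on day 12. In the average the difference of the medians was -0.53, a description of these lists with no test over the members. With the enzymes of the spiral alone it was -0.71. Average ratios ran from -4.46 to -0.01 in peroxisomal and from -1.41 to 0.29 in mitochondrial members.

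By day, members lower in recruited cells numbered 27 of 35 on day 3, when 23.5% of all genes tested were lower, 25 on day 6 (18.8%), 20 on day 9 (16.4%) and 17 on day 12 (14.7%). Members higher in recruited cells numbered 2 on day 3 (23.2% of all genes tested), 2 on day 6 (16.2%), 1 on day 9 (15.5%) and 1 on day 12 (12.6%). All 3 recruited libraries lay below all 3 resident libraries in 27 of the 35 members on day 3 (27.8% of all genes tested), 26 on day 6 (26.1%), 21 on day 9 (20.0%) and 21 on day 12 (22%). They lay above them in 4 members on day 3 (28.6%), 3 on day 6 (23.5%), 2 on day 9 (18.9%) and 4 on day 12 (18.7%). Libraries of the same day and number deviated together, so the fit was repeated with each pair as a block. On day 3 the block ended the call of Acsl1 (adjusted p = 0.0729). On day 9 it added Acadm (0.0109), Echs1 (0.0294) and Acsl4 (0.0232), and on day 12 it added Cpt1a (0.0435) and Acsl4 (0.0124) and ended the call of Slc25a20 (0.0556). Over all genes tested, calls rose with the block from 4350 to 5422 on day 9 and from 3713 to 4771 on day 12.

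**Figure D3:**
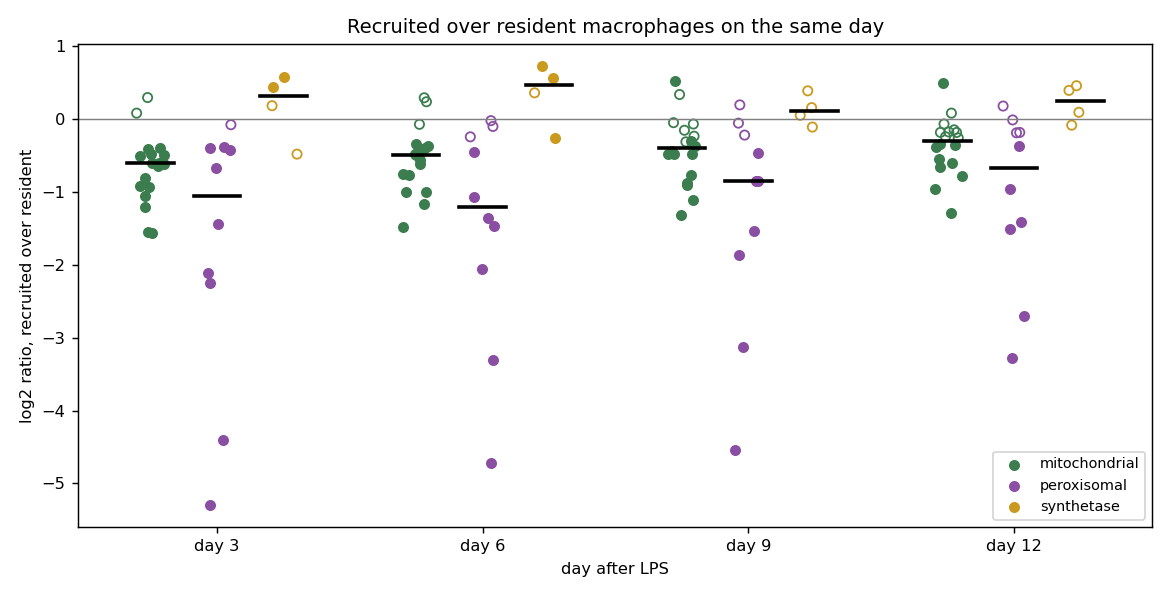
Log2 ratio of recruited over resident macrophages on days 3, 6, 9 and 12, 1 point per gene for 18 mitochondrial members, 10 peroxisomal members and 4 synthetases, filled where the adjusted p is under 0.05, with a black line at each median. Peroxisomal points reach -5.30 on day 3 (Acaa1b), whereas the lowest mitochondrial point of that day is -1.56 (Decr1).

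The acyl-CoA synthetases, which activate fatty acids for every use, had 2 of 4 members higher and none lower in the average (median 0.23). Over all genes tested, 30.3% were higher and 30.0% lower there, so a count over 4 genes does not set this class apart. Acsl4, which prefers arachidonate, had 151, 154 and 146 CPM on day 3, 113, 95.2 and 99.6 CPM on day 6, 59.3, 111 and 86.6 CPM on day 9 and 99.96, 93.1 and 81.6 CPM on day 12 in recruited libraries. Resident macrophages had 83.2, 63.4 and 73.0 CPM on day 0, 80.9, 101 and 120 CPM on day 3, 68.4, 66.4 and 71.8 CPM on day 6, 57.7, 78.8 and 59.0 CPM on day 9 and 75.4, 68.9 and 64.2 CPM on day 12. The average log2 ratio was 0.48 (SE 0.09, adjusted p = 3.32e-05), with recruited libraries above resident ones on days 3, 6 and 12. Acsl5 had 316, 289 and 293 CPM on day 3, 147, 165 and 171 CPM on day 6, 164, 190 and 166 CPM on day 9 and 164, 193 and 193 CPM on day 12 in recruited libraries. It had 164, 176 and 179 CPM on day 0, 247, 259 and 284 CPM on day 3, 198, 184 and 193 CPM on day 6, 170, 194 and 197 CPM on day 9 and 199, 188 and 195 CPM on day 12 in resident cells. Recruited libraries lay above resident ones on day 3 and below them on day 6, and the average of -0.06 (SE 0.05, adjusted p = 0.241) did not pass the test. Acsl3 did not pass it either (0.10, SE 0.35, adjusted p = 0.824).

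Acsl1, which had the widest range of the synthetases, peaked on day 3. It had 1049, 960 and 741 CPM on day 3, 334, 258 and 231 CPM on day 6, 148, 211 and 179 CPM on day 9 and 174, 183 and 167 CPM on day 12 in recruited libraries. In resident libraries it had 121, 131 and 128 CPM on day 0, 473, 613 and 928 CPM on day 3, 168, 166 and 161 CPM on day 6, 140, 172 and 169 CPM on day 9 and 166, 165 and 160 CPM on day 12. The highest resident library of day 3 lay within the recruited range of that day, and the average log2 ratio was 0.36 (SE 0.09, adjusted p = 0.00157). Neutrophil markers also stood highest on day 3, at 450 to 883 CPM in recruited and 194 to 225 CPM in resident libraries, and their part in the Acsl1 level was not tested.

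Ppard, a fatty acid receptor, had 69.7, 79.9 and 74.9 CPM on day 3, 77.8, 81.1 and 78.0 CPM on day 6, 69.4, 90.6 and 66.1 CPM on day 9 and 107, 70.2 and 70.4 CPM on day 12 in recruited libraries. Its resident libraries held 106, 85.5 and 80.7 CPM on day 0, 62.4, 63.8 and 61.0 CPM on day 3, 66.9, 73.8 and 73.2 CPM on day 6, 72.6, 88.0 and 81.7 CPM on day 9 and 89.4, 89.2 and 84.4 CPM on day 12. Recruited libraries lay above resident ones on days 3 and 6 and overlapped them later, and the average of 0.05 (SE 0.07, adjusted p = 0.513) did not pass the test.

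In resident cells most changes of these genes after LPS were on day 3. Relative to day 0, 7 of 35 members were higher on day 3 (13.3% of all genes tested) and 4 were lower (10.5%). The synthetases Acsl1 (2.403, SE 0.19, adjusted p = 4.7e-09) and Acsl5 (0.60, SE 0.09, adjusted p = 6.21e-05) were higher. So were Pex11a (1.28, SE 0.25, adjusted p = 0.000787) and Acaa1a (0.54, SE 0.14, adjusted p = 0.00631) among peroxisomal members, and Acadl (0.70, SE 0.14, adjusted p = 0.000754), Echs1 (0.66, SE 0.13, adjusted p = 0.000956) and Eci1 (0.46, SE 0.16, adjusted p = 0.0369) among mitochondrial members. The lower ones were Hsd17b4 (-0.62, SE 0.13, adjusted p = 0.00195), Acox3 (-0.60, SE 0.11, adjusted p = 0.000327), Ppard (-0.54, SE 0.14, adjusted p = 0.00670) and Acadm (-0.42, SE 0.12, adjusted p = 0.0151). Acox3 had 273, 234 and 203 CPM on day 3, against 348, 368 and 362 CPM on day 0, with no overlap. The call of Eci1 was lost (0.0623 to 0.128) without any 1 of the day 0 libraries or without day 3 replicate 1 or 3, and that of Acadm (0.0743 to 0.101) without day 0 replicate 2 or 3 or day 3 replicate 3. Markers of other cells moved on the same day: 5 of 8 monocyte markers and 4 of 8 neutrophil markers tested were higher in resident cells on day 3 than on day 0. The monocyte markers summed to 3035 to 4021 CPM on day 3, against 1211 to 1972 CPM on day 0, and the neutrophil markers to 194 to 225 CPM, against 82.4 to 95.9 CPM. Itgam, which encodes the CD11b of the sort, averaged 398 CPM on day 3 and 6.92 CPM on day 0. The part of these cells in the members' changes was not tested.

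On later days few resident members differed from day 0. All these comparisons share the 3 untreated libraries. On day 6 Acaa1a was higher (0.50, SE 0.14, adjusted p = 0.0307) and Hsd17b4 lower (-0.54, SE 0.13, adjusted p = 0.0166), against 3.77% of all genes tested higher and 2.65% lower. On day 9 Acaa1a was higher (0.51, SE 0.14, adjusted p = 0.0395) and no member lower, against 1.61% of genes higher and 1.88% lower. On day 12 edgeR called 0 members, against 1.10% of genes higher and 0.206% lower, 3 members had an unadjusted p under 0.05 (Acaa1a, Crat and Pex11a), and DESeq2 called 0. The Acaa1a calls were lost on day 6 (0.0592 to 0.131) and day 9 (0.0823 to 0.164) without any 1 of the 6 libraries compared, and that of Hsd17b4 on day 6 (0.0572 to 0.0926) without day 0 replicate 2 or 3 or day 6 replicate 1. Acaa1a itself had 145, 139 and 124 CPM on day 0, 207, 187 and 198 CPM on day 3, 201, 187 and 186 CPM on day 6, 193, 197 and 189 CPM on day 9 and 178, 193 and 177 CPM on day 12 in resident libraries, so that every later library lay above those of day 0.

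In recruited cells more oxidation members were higher than lower on later days, while synthetases were lower. Relative to recruited day 3, whose libraries all these comparisons share, 8 members were higher on day 6 (15.1% of all genes tested) and 7 lower (16.8%), 12 were higher on day 9 (18.2%) and 5 lower (18%), and 17 were higher on day 12 (19.8%) and 5 lower (19.5%). On day 6, 4 of 18 mitochondrial members were higher and 2 lower, with a median of -0.03 that showed no rise. Of 10 peroxisomal members 4 were higher and 2 lower that day (median 0.39). On day 12, 9 of 18 mitochondrial members were higher and 1 lower (median 0.27), 7 of 10 peroxisomal members higher and 1 lower (median 0.65), Crat was higher, and 3 of 4 synthetases were lower (median -0.71). The median of day 12 was 0.02 for all genes tested. Acsl1 fell by 2.39 on the log2 scale (adjusted p = 1.59e-09), Acsl4 by 0.71 (0.00181) and Acsl5 by 0.71 (2.24e-06). With only the groups compared in the fit, 13 members passed the test on day 12 and 9 on day 9, against 22 and 17 with all libraries, and without recruited day 3 replicate 2 the day 9 count was 11. Over all 13599 genes tested, calls also fell with only the groups compared, from 5348 to 3920 on day 12 and from 4933 to 2753 on day 9.

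Among peroxisomal members, Acox3 had 297, 327 and 334 CPM on day 12, against 158, 134 and 157 CPM on day 3 (1.10, SE 0.11, adjusted p = 4.43e-08). Abcd2 had 114, 273 and 222 CPM on day 12, against 65.7, 68.0 and 74.9 CPM on day 3 (1.55, SE 0.30, adjusted p = 0.000276). In neither gene did the days overlap. Ehhadh stood at 1.42 (SE 0.38, adjusted p = 0.00486), Abcd3 at 0.67 (SE 0.12, adjusted p = 0.000163) and Crot at 0.64 (SE 0.13, adjusted p = 0.000388). The change of Acaa1b (2.70, SE 0.85, adjusted p = 0.0162) was lost without recruited day 3 replicate 2 (0.0691) or 3 (0.0645) or day 12 replicate 2 (0.0816), and that of Hsd17b4 (0.45, SE 0.14, adjusted p = 0.0116) without day 3 replicate 2 (0.0654) or day 12 replicate 2 (0.0577). Among mitochondrial members Decr1 (1.16, SE 0.19, adjusted p = 5.07e-05), Hadh (0.86, SE 0.11, adjusted p = 1.14e-06), Acadm (0.71, SE 0.12, adjusted p = 6.66e-05) and Cpt1a (0.59, SE 0.12, adjusted p = 0.000493) had the largest changes. Acaa1a went against its class, falling by 0.68 on the log2 scale (adjusted p = 0.000376).

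The recruited libraries of day 12 did not stand alike, and resident macrophage markers moved with them. The median log2 ratio of peroxisomal members to untreated resident cells was -0.92 in replicate 1 and -0.23 in each of replicates 2 and 3, and that of mitochondrial members was -0.39, -0.13 and -0.09. The 11 resident markers, mostly Chil3, summed to 3014, 10329 and 9776 CPM in these libraries, against 2640 to 3806 CPM in recruited day 3 libraries, and to 15917 to 33471 CPM in resident libraries. Between days 12 and 3, 7 of the 11 resident markers were higher in recruited cells, and all 8 neutrophil markers tested were lower, with sums of 159 to 188 CPM on day 12 and 450 to 883 CPM on day 3. The sort gene Itgax averaged 218 CPM on day 3 and 1310 CPM on day 12 in recruited cells, against 1817 CPM in untreated resident cells. Itgam averaged 3021 and 1025 CPM in recruited cells on days 3 and 12. Replicate 1 is number 18 of the header, and monocyte markers summed to 24366 CPM in it, against 11625 and 14839 CPM in replicates 2 and 3. Numbers 12, 13 and 17 also had the highest monocyte sum of their groups. These sums were 11621.6 CPM in resident day 9, 10103.5 CPM in resident day 12 and 22880 CPM in recruited day 9. The part of these markers in the changes was not tested. Without recruited day 12 replicate 1, 22 members passed the test between days 12 and 3, as with it, and 14 between the populations on day 12, against 18 with it. Calls over all genes without that library are not given here, so a general loss of calls cannot be told apart from a loss in the members.

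**Figure D4:**
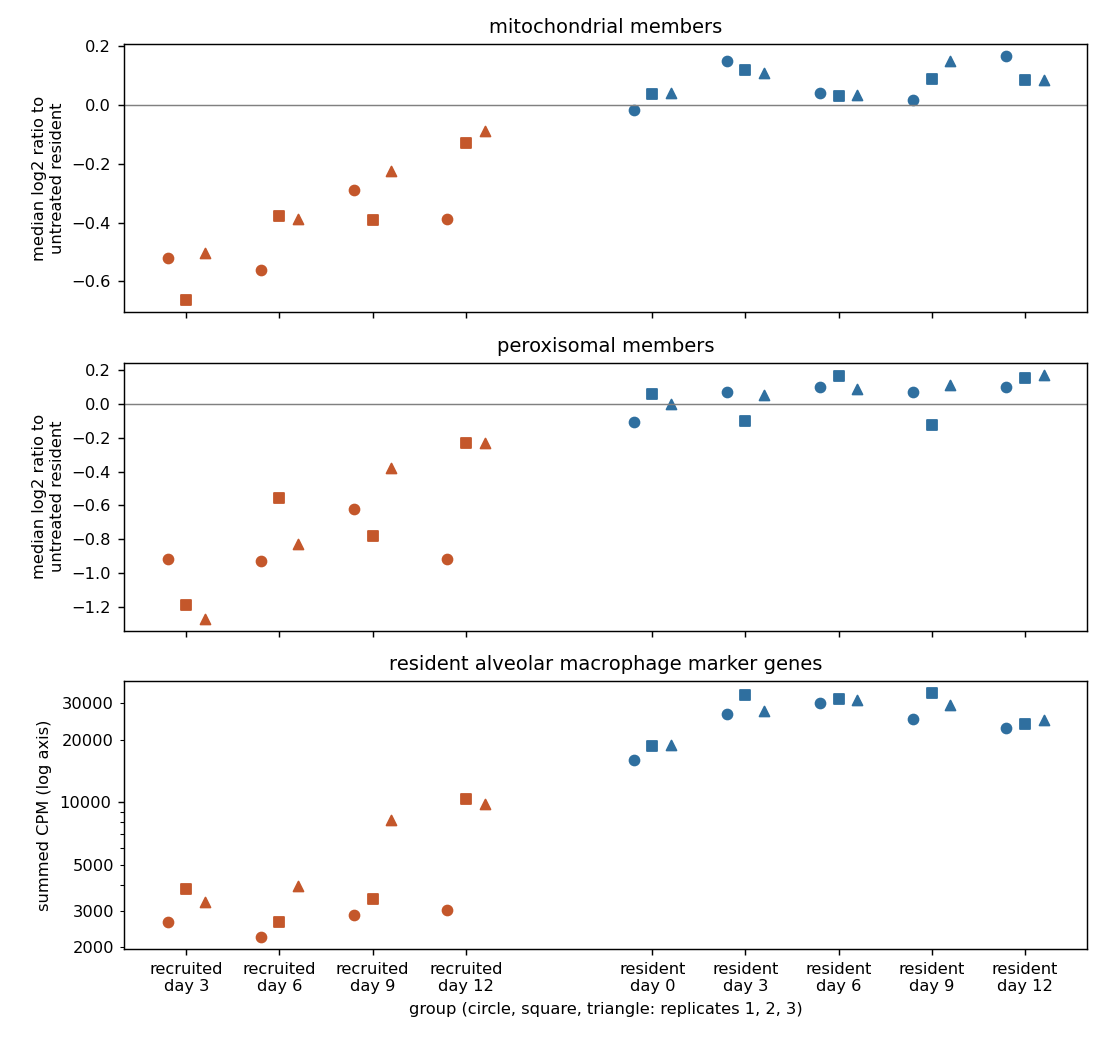
Each point is 1 library, recruited in orange and resident in blue: the median log2 ratio to untreated resident cells over mitochondrial and over peroxisomal members, and the summed CPM of 11 resident macrophage markers (mostly Chil3) on a log axis. Recruited day 12 replicate 1 lies apart from replicates 2 and 3 in all panels, at -0.39, -0.92 and 3014 CPM.

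The difference between the populations changed over days in 5 of 35 members, tested as an interaction of population and day. Of all genes tested 10.7% passed, so the share of members was near that of all genes. Hadh had a log2 ratio of recruited over resident of -1.05 on day 3, -0.49 on day 6, -0.30 on day 9 and -0.18 on day 12 (SE 0.11 on day 3, adjusted p of the interaction = 0.00156). Its recruited libraries had 28.7, 20.7 and 29.5 CPM on day 3, 37.4, 35.1 and 43.3 CPM on day 6, 40.2, 46.1 and 46.3 CPM on day 9 and 50.7, 46.6 and 46.3 CPM on day 12, and its resident libraries 48.8 to 58.2 CPM (median 53.7). Decr1 had ratios of -1.56, -0.57, -0.07 and -0.18 on the same days (SE 0.19 on day 3, adjusted p = 0.00182). It had 10.7, 5.58 and 6.99 CPM on day 3, 13.1, 10.3 and 16.1 CPM on day 6, 16.1, 20.6 and 15.3 CPM on day 9 and 16.3, 17.7 and 18.004 CPM on day 12 in recruited and 16.5 to 26.1 CPM (median 19.95) in resident libraries. The recruited libraries lay below the resident ones of the same day on all 4 days in Hadh, and on days 3 and 6 in Decr1.

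Abcd2 had the widest change of the 5, with ratios of -2.11 on day 3, -1.35 on day 6, -0.84 on day 9 and -0.18 on day 12 (SE 0.30 on day 3, adjusted p = 0.0172). Its recruited libraries had 65.7, 68.0 and 74.9 CPM on day 3, 109, 143 and 93.3 CPM on day 6, 134, 79.7 and 172 CPM on day 9 and 114, 273 and 222 CPM on day 12, and its resident libraries 135 to 342 CPM (median 262). The populations overlapped on day 12 alone. Header numbers 17 and 18, recruited day 9 replicate 2 and day 12 replicate 1, had the lowest Abcd2 values of their groups. Acad10 changed side, with ratios of -0.61, 0.29, 0.53 and 0.08 (SE 0.16 on day 3, adjusted p = 0.00613). It had 6.35, 5.81 and 6.55 CPM on day 3, 6.52, 8.36 and 10.7 CPM on day 6, 8.37, 9.98 and 10.4 CPM on day 9 and 7.81, 8.66 and 8.42 CPM on day 12 in recruited libraries. Its resident libraries had 9.06, 7.74 and 8.87 CPM on day 0, 9.58, 9.26 and 9.77 CPM on day 3, 6.05, 6.59 and 8.19 CPM on day 6, 6.49, 6.50 and 6.91 CPM on day 9 and 7.19, 8.02 and 8.28 CPM on day 12. Recruited libraries lay below resident ones on day 3 and above them on day 9.

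Slc25a20 moved the opposite way, with ratios of 0.30 on day 3, -0.39 on day 6, -0.48 on day 9 and -0.36 on day 12 (SE 0.13 on day 3, adjusted p = 0.0202). It had 43.7, 41.9 and 60.4 CPM on day 3, 29.8, 31.4 and 36.1 CPM on day 6, 30.4, 34.4 and 33.3 CPM on day 9 and 28.1, 37.2 and 38.1 CPM on day 12 in recruited libraries. The resident libraries had 37.5, 42.4 and 41.5 CPM on day 0, 39.4, 37.5 and 41.9 CPM on day 3, 42.0, 41.1 and 44.4 CPM on day 6, 43.7, 47.6 and 45.2 CPM on day 9 and 51.4, 42.5 and 38.9 CPM on day 12. Recruited libraries lay above resident ones on day 3 and below them on the later days. The call was lost without resident day 3 replicate 1 (0.0614) or 2 (0.0735), without recruited day 3 replicate 3 (0.108), and with library size alone in place of TMM (0.140). With the pairs as a block, Acadl also passed (adjusted p = 0.0251), while calls over all genes tested rose from 1449 to 2463.

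**Figure D5:**
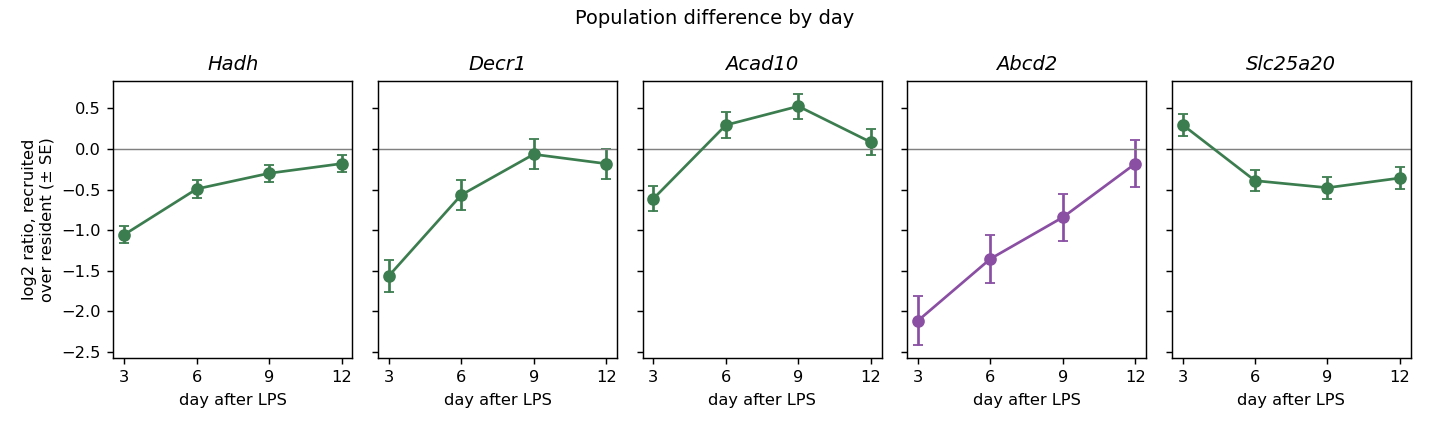
Log2 ratio of recruited over resident macrophages, with its SE, on days 3, 6, 9 and 12 for the 5 members whose difference changed over days. Hadh, Decr1 and Abcd2 end at -0.18, -0.18 and -0.18, Acad10 crosses 0, and Slc25a20 is above 0 on day 3 and below it later.

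Set against untreated resident cells, recruited cells of day 12 held less of 12 members and more of 1 (15.5% of all genes tested lower and 15.5% higher). The median was -0.17 for 18 mitochondrial and -0.37 for 10 peroxisomal members. Acaa1b (-3.56, SE 0.72, adjusted p = 0.000730), Ehhadh (-2.82, SE 0.31, adjusted p = 4.22e-07), Hsd17b4 (-1.60, SE 0.14, adjusted p = 8.42e-09), Cpt2 (-1.17, SE 0.14, adjusted p = 7.36e-07), Eci2 (-1.05, SE 0.19, adjusted p = 0.000194) and Hadha (-0.85, SE 0.09, adjusted p = 8.4e-08) were among the lower ones, and Echs1 was higher (0.57, SE 0.13, adjusted p = 0.00226).

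Of 25 other mitochondrial fatty acid oxidation genes tested, 14 were lower and 2 higher in recruited cells in the average (median -0.30). Over all genes tested, 30.0% were lower and 30.3% higher in that comparison. Acsf2 (-2.27, SE 0.08), an acyl-CoA synthetase, and Ech1 (-1.31, SE 0.07), a dienoyl-CoA isomerase, were lowest, and Acadsb (0.48, SE 0.06) and Mcee (0.37, SE 0.10) were higher. Of 21 other peroxisomal lipid genes, 17 were lower and 3 higher (median -0.54), with the thioesterase Acot4 (-2.64, SE 0.24) and the membrane protein Pxmp4 (-1.95, SE 0.12) lowest and Nudt7 (0.58, SE 0.13) and Amacr (0.39, SE 0.12) highest. Ech1 and Acad11 are in both lists.

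Peroxins, which build the organelle, were lower in 5 of 15 and higher in 1 (median -0.00), with Pex11g (-1.11, SE 0.10) and Pex16 (-0.92, SE 0.10) lowest and Pex26 (0.85, SE 0.08) higher. Over all genes tested, 30.0% were lower and 30.3% higher in this average, so the share of lower peroxins was near that of all genes. Respiratory chain subunits were lower in 14 of 31 and higher in 5 (median -0.06), with Ndufa4 (-1.398, SE 0.11) and Cox5a (-0.45, SE 0.06) lowest and Ndufb3 (0.31, SE 0.07) and Uqcrq (0.19, SE 0.08) highest. In resident cells 17 of 31 subunits were higher on day 3 than on day 0 and none was lower (median 0.41), against 13.3% and 10.5% of all genes tested. In recruited cells 1 of 31 was higher and 17 were lower on day 12 than on day 3 (median -0.34), while 10 of the 25 other mitochondrial oxidation genes were higher and 1 lower (median 0.25). Over all genes tested, 19.8% were higher and 19.5% lower between these days.

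Of 17 other PPAR-related genes tested, 9 were lower and 2 higher in recruited cells (median -0.56), against 30.0% and 30.3% of all genes tested. Pdk4, a kinase that turns cells from glucose to fatty acid use, stood at -4.001 (SE 0.32, adjusted p = 4.68e-10), the lipid carrier Fabp4 at -2.63 (SE 0.30, adjusted p = 1.85e-07), the fatty acid transporter Slc27a1 at 1.16 (SE 0.08, adjusted p = 7.44e-12) and Fabp5 at 0.81 (SE 0.21, adjusted p = 0.00225). Pparg, a receptor needed for alveolar macrophage development (named after its values were seen), averaged 18.4 CPM on day 3, 49.9 on day 6, 64.1 on day 9 and 96.7 on day 12 in recruited cells, against 156, 179, 173 and 172 CPM in resident cells, and stood at -1.80 (SE 0.16, adjusted p = 4.97e-09). Pparg and Fabp4 are also in the resident marker list.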

How the data were processed

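Whole-number read counts per gene were deposited by the authors for 27 libraries, made with a stranded polyA kit per the labels' protocols. The build mm10, R 3.1.0, DESeq2 1.4.5, HTSeq 0.6.0 and STAR 2.4.0a are listed in the submitters' processing notes. Groups came from the labels. The test was edgeR's robust quasi-likelihood test (version 4.0.16, R 4.3.3) with TMM scaling and a mean for each of the 9 groups, which left 18 residual degrees of freedom, on genes kept by a minimum count of 10 and a total of 15, with Benjamini-Hochberg adjustment at 0.05, and the procedure was tested on simulated data. CPM use TMM library sizes, and values per kilobase use union exon lengths. Depth was 11093216 to 18299674 counts, and counting error is one part of the spread.

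The members and lists were chosen with earlier results of these data known. Named in every library were the members at either end of each class by average ratio, those called against their class and those called in the interaction, and from other lists up to 2 called genes in either direction.

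The labels give both populations the same replicate numbers on each day. In 12 of 12 pairs of the same day and number the libraries deviated together (r from 0.17 to 0.52), each correlating best with its own number, so population comparisons were also fitted with the pair as a block. Across days, r ran from -0.43 to 0.29 between libraries of the same replicate number (above 0 in 46 of 96 pairs) and from -0.20 to 0.60 between those of the same run of header numbers (51 of 72 pairs), with 0.42 to 0.60 among numbers 12, 13, 17 and 18. Alternatives were DESeq2 1.42.0, library size alone, no filter, a mean of at least 1 CPM, the run of header numbers as a covariate, only the groups compared, and leaving out each library. Reads assigned to no gene were left out of library sizes and came to 6.77% to 26.5%.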

Additional observations from a re-analysis of the deposited data

Results flagged for a closer look

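In 5 of 35 members the difference between recruited and resident macrophages changed over days, by edgeR's test of the interaction of population and day. Of all genes tested 10.7% passed it, a share near that of the members. The adjusted p was 0.00156 for Hadh, 0.00182 for Decr1, 0.00613 for Acad10, 0.0172 for Abcd2 and 0.0202 for Slc25a20. Between days 12 and 3 the log2 ratio changed by 0.87 in Hadh, 1.38 in Decr1, 0.70 in Acad10, 1.93 in Abcd2 and -0.66 in Slc25a20. In the reads that were assigned to no gene, recruited day 6 replicate 2 stood apart with 26.5%, against 9.16% to 11.2% in untreated resident libraries. Without it, 24 members passed the test between the populations on day 6, against 27 with it. Calls over all genes without it are not given here, so a general loss of calls cannot be told apart.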

How the results depend on the processing

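No called result reversed under the alternatives run, apart from the interaction, where direction was not compared. Over 490 member values, 7276 of 7630 alternatives kept the side of the threshold, and the direction where either value was called. Changes of direction between values not called were not counted. Of 210 called values, 146 were kept in all alternatives. Resident day 6 over day 0 had 2 members called, 4 with the run of header numbers as a covariate, 6 with only the groups compared and 0 to 1 with a library left out. Resident day 9 over day 0 had 1 member called, 0 with library size alone, with no filter or with only the groups compared, 2 with the run of header numbers and 0 to 1 with a library left out. Resident day 12 over day 0 had 0, and 1 with only the groups compared. Recruited day 9 over day 3 had 17, 9 with only the groups compared and 11 to 18 with a library left out. Recruited day 12 over day 3 had 22 and 13 with only the groups compared. Over all 13599 genes tested, calls with only the groups compared went from 873 to 1461, 474 to 136 and 177 to 223 for resident days 6, 9 and 12. For recruited days 9 and 12 they went from 4933 to 2753 and from 5348 to 3920. All-gene calls with a library left out are not given here. With the run of header numbers, all-gene calls were 1586 for resident day 6 and 1076 for day 9, and with library size alone 632 for day 9. The difference of the peroxisomal and mitochondrial medians was -0.53 and -0.71 with the enzymes of the spiral alone. The cause of these shifts was not tested. With the replicate block the counts were 29 in the average, 28 on day 3, 27 on day 6, 24 on day 9, 19 on day 12 and 6 for the interaction, and 17 and 21 for recruited days 9 and 12 over day 3, where replicate numbers of different days can fall in different runs of header numbers. Over all genes tested, the block raised calls from 8198 to 8812 in the average, from 6342 to 7177 on day 3 and from 4758 to 5752 on day 6. They rose from 4350 to 5422 on day 9, from 3713 to 4771 on day 12 and from 1449 to 2463 for the interaction. For recruited days 9 and 12 over day 3 they went from 4933 to 4966 and from 5348 to 5366. The block changed no other call between the populations than those given beside the results. Library size alone moved the median of all genes between recruited days 9 and 3 to 0.15, against 0.03 with TMM. Levels near the floor, such as Ehhadh and Acaa1b in recruited cells, are limited by depth.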
